A study of Mus musculus with 96 samples.

Results

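Fibroblast growth factor (FGF) to ERK signalling was described through 9 mouse genes, chosen by name from among the 21711 gene rows of the count table: the ligand *Fgf4*, the ligand carrier *Fgfbp1*, the receptors *Fgfr1* and *Fgfr2*, the feedback inhibitors *Spry2* and *Spry4*, the ERK phosphatase *Dusp6*, and the ETS transcription factors *Etv4* and *Etv5*. All 9 had a row and at least 20 reads over both cell types, 8 had at least 100 reads, and 100% of the reads of each were uniquely mapped over the plate. FGFs bind receptor tyrosine kinases together with heparan sulphate, and the activated receptor signals through an adaptor complex, Ras, Raf and MEK to the kinase ERK. ERK activity in turn raises transcription of Sprouty proteins, of *Dusp6* and of the ETS factors *Etv4* and *Etv5*, so that these genes are widely used as a readout of FGF signalling. In mouse embryonic stem (ES) cells, FGF4 made by the cells themselves is known to promote exit from the naive state, and in fibroblasts FGFs act as mitogens.

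Single cells were profiled by single-cell tagged reverse transcription (STRT), which reads the 5′ end of transcripts with their strand. A 96-well plate held 48 ES cells of the R1 line, 44 fibroblasts from mouse embryos (MEFs) and 4 negative controls. MEFs were grown in DMEM with serum, whereas the ES cell medium was not given in the sources used here, so cell type and medium cannot be told apart, and whether LIF, FGF or an inhibitor was added is unknown. No genetic change, drug or age was labelled for either type, and the labels also give R1 as the source line of the MEFs, which conflicts with their cell type. All wells formed 1 library, ES cells lay on 1 side of the plate and MEFs and controls on the other, and the 8 plate rows each contained both types. With 1 culture labelled per type, cells are not replicates, so no test was possible. Intervals given here cover counting error only, and the spread between wells is given as the SD, over the 8 plate rows, of the log2 ratio with 10 CPM added to both types.

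Of the ES cells, 45 with at least 10000 gene reads were kept, with 13576 to 703423 reads each (median 161206), against 63938 to 1883709 (median 851801) in all 44 MEFs and 236 to 4662 in the control wells. Levels are given as CPM, the summed reads scaled to 1000000 gene reads. Reads come from transcript 5′ ends and were not divided by length, so levels were not compared between genes. All 12 ES cell markers, among them *Pou5f1*, *Sox2* and *Nanog*, exceeded 2-fold on the ES cell side, and all 12 fibroblast markers, among them *Col1a1*, *Thy1* and *Pdgfra*, on the MEF side. Fibroblast markers in ES cell wells stood at 3.83% to 10.9% of their MEF level (median 6.56%), while ES cell markers in MEF wells stood at 0% to 27.9% of their ES cell level (median 0.405%). Replicates 4, 7 and 30 of the ES cells, known from earlier results to lie nearer the MEF mean profile, were kept, and leaving them out changed no 2-fold call of the 9 genes (*Fgfr2*, which moved most, had a log2 ratio of −4.78 without them and −4.71 with them). The median gene with at least 100 reads had a log2 ratio (ES cell over MEF) of −1.54 on the CPM scale, −0.26 with median-of-ratios scaling and −6.10 with spike-in scaling. Ratios are therefore also given relative to the median gene, a value that these 3 scalings leave unchanged.

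On the CPM scale, *Fgf4*, *Fgfbp1*, *Etv4* and *Etv5* were higher in ES cells by 2-fold or more, *Fgfr2*, *Spry2* and *Dusp6* were higher in MEFs by 2-fold or more, and *Fgfr1* and *Spry4* did not reach 2-fold, although *Spry2*, *Fgfr1* and *Spry4* turned to the ES cell side with median-of-ratios scaling and *Etv4* and *Etv5* to the MEF side with spike-in scaling. Among all 12818 genes with at least 20 reads, 15.4% reached 2-fold on the ES cell side and 58.5% on the MEF side. Against the median gene, 5 of the 9, the same 4 and *Fgfr1*, lay above it by 2-fold or more (33.8% of all genes), and 1, *Fgfr2*, lay below it by as much (32.5% of all genes). The median log2 ratio of the 9 genes was −0.32 on the CPM scale and 1.22 relative to the median gene. With 10 CPM added, the log2 ratio exceeded its SD over plate rows for *Fgf4*, *Fgfr2* and *Etv5*, and just did so for *Fgfbp1*, but was smaller than its SD for the other 5. The calls for *Etv4* and *Fgfbp1* in ES cells each rested on 1 cell.

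The sequence before the start site is shown for the ligand and for 3 genes downstream of the receptor, to set the promoter of an ES cell gene beside those of genes read in both types. Each window holds the 250 bases before the RefSeq start (RefSeq, build GRCm38.p6), except that of *Etv5*, which is shown only as far as its first annotated exonic base (101 bases). Capitals mark GC boxes (GGGCGG), the motif bound by Sp1 family factors. The *Fgf4* window is at chr7:144861136-144861385 on the plus strand, that of *Etv5* at chr16:22439720-22439820 on the minus strand, that of *Spry2* at chr14:105896820-105897069 on the minus strand and that of *Dusp6* at chr10:99262981-99263230 on the plus strand.
Fgf4: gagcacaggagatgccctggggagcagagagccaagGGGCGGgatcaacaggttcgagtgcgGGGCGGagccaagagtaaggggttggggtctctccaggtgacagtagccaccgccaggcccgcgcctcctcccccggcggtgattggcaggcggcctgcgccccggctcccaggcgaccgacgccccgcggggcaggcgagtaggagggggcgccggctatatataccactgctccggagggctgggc
Etv5: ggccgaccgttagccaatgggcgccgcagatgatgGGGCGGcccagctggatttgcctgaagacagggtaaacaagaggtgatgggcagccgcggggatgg
Spry2: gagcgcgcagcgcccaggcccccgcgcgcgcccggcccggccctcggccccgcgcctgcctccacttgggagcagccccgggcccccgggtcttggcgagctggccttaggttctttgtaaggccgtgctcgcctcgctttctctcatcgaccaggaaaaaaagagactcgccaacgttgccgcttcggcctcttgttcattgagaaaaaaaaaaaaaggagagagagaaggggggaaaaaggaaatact
Dusp6: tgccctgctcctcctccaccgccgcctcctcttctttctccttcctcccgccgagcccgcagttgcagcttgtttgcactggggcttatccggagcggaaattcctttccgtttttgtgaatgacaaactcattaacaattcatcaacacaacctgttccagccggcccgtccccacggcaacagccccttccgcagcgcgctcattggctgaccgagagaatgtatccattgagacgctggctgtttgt

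Of the 9 genes, 6 had a promoter window in the RefSeq table, with 7 windows in all since *Etv5* had 2. The windows shown were rich in G and C, at 71.2% in *Fgf4*, 71.2% in the whole 250 bases of *Etv5*, 62.4% in *Spry2* and 56.4% in *Dusp6*. Searched on both strands, the GC box occurred in 32.7% of 32851 windows of the same length. It began at positions −214 and −188 before the *Fgf4* start, and 3 times in the full *Etv5* window, where the match furthest from the start, at −215, is the one shown and the nearest was at −55. The ETS site was searched as CCGGAA (in 12.03% of all windows) and the TATA box as TATAAA (in 12.4%). These exact letters were in none of the 7 windows. Other forms were not searched, such as GGAA, which the *Spry2* and *Dusp6* windows hold, and TATATA, which the *Fgf4* window holds. A match is a description of letters and no match says nothing of the factor.

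The ligand *Fgf4* (GRCm38 chr7:144847367-144865243, plus strand) was read in 13 of 45 ES cells and in no MEF. Its 735 ES cell reads gave 84.3 CPM (95% Poisson interval 78.3 to 90.6), against 0 reads in MEFs, for which 3 reads over the group, 0.0853 CPM, were taken as the floor. Against this floor *Fgf4* in ES cells was 988-fold higher on the CPM scale, or 760-fold without ES cell replicate 27. The size depends on the scale: the log2 ratio was 9.95 on the CPM scale, 5.39 with spike-in scaling and 4.26 at 20000 gene reads per cell. Of all genes with at least 20 reads over both types, 2.15% had none in MEFs. MEFs held 35155326 gene reads against 8720507 in ES cells, so the minimum itself favours genes read in MEFs and no weight is put on this share. The positive ES cells differed in level. Replicates 22, 27 and 35 held 188, 188 and 179 reads, 75.5% of the total, a further 5 cells held 30 to 33 reads, and the other 5 held 2 to 10. Per cell, *Fgf4* ran from 0 to 763 CPM in ES cells, with a median of 0, and the groups overlap only at 0.

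The MEF wells, which held no *Fgf4* read, were the deeper ones. Thinned to 20000 gene reads per cell, *Fgf4* was read in 12 of 42 ES cells, 28.6% (95% Clopper-Pearson interval 15.7% to 44.6%), and in 0 of 44 MEFs, which allows a share of up to 6.82% taking 3 cells as the limit, or 8.04% by the Clopper-Pearson interval. *Fgf4* was higher in ES cells in 7 of the 8 plate rows and at 0 in both types in the remaining row. With 10 CPM added, its log2 ratio was 3.24, larger than the SD of 1.64 over rows. A negative control well held 6 *Fgf4* reads and the other 3 held none. Among the positive ES cells, replicates 23, 42, 26 and 38 held no more than that well, with 6, 5, 2 and 2 reads.

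*Fgfbp1* (chr5:43978858-43981779, minus strand) encodes a secreted protein that binds FGFs and frees them from the matrix. All of its 83 reads came from ES cell replicate 23, at 255 CPM in that cell, with no read in the other 44 ES cells, the MEFs or the control wells. Pooled, this was 9.52 CPM in ES cells (7.58 to 11.8), 112-fold higher than the same floor of 3 reads over the MEFs. With 10 CPM added the log2 ratio was 0.96 (SD 0.95 over rows), and without replicate 23 no ratio could be given.

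**Figure D1:**
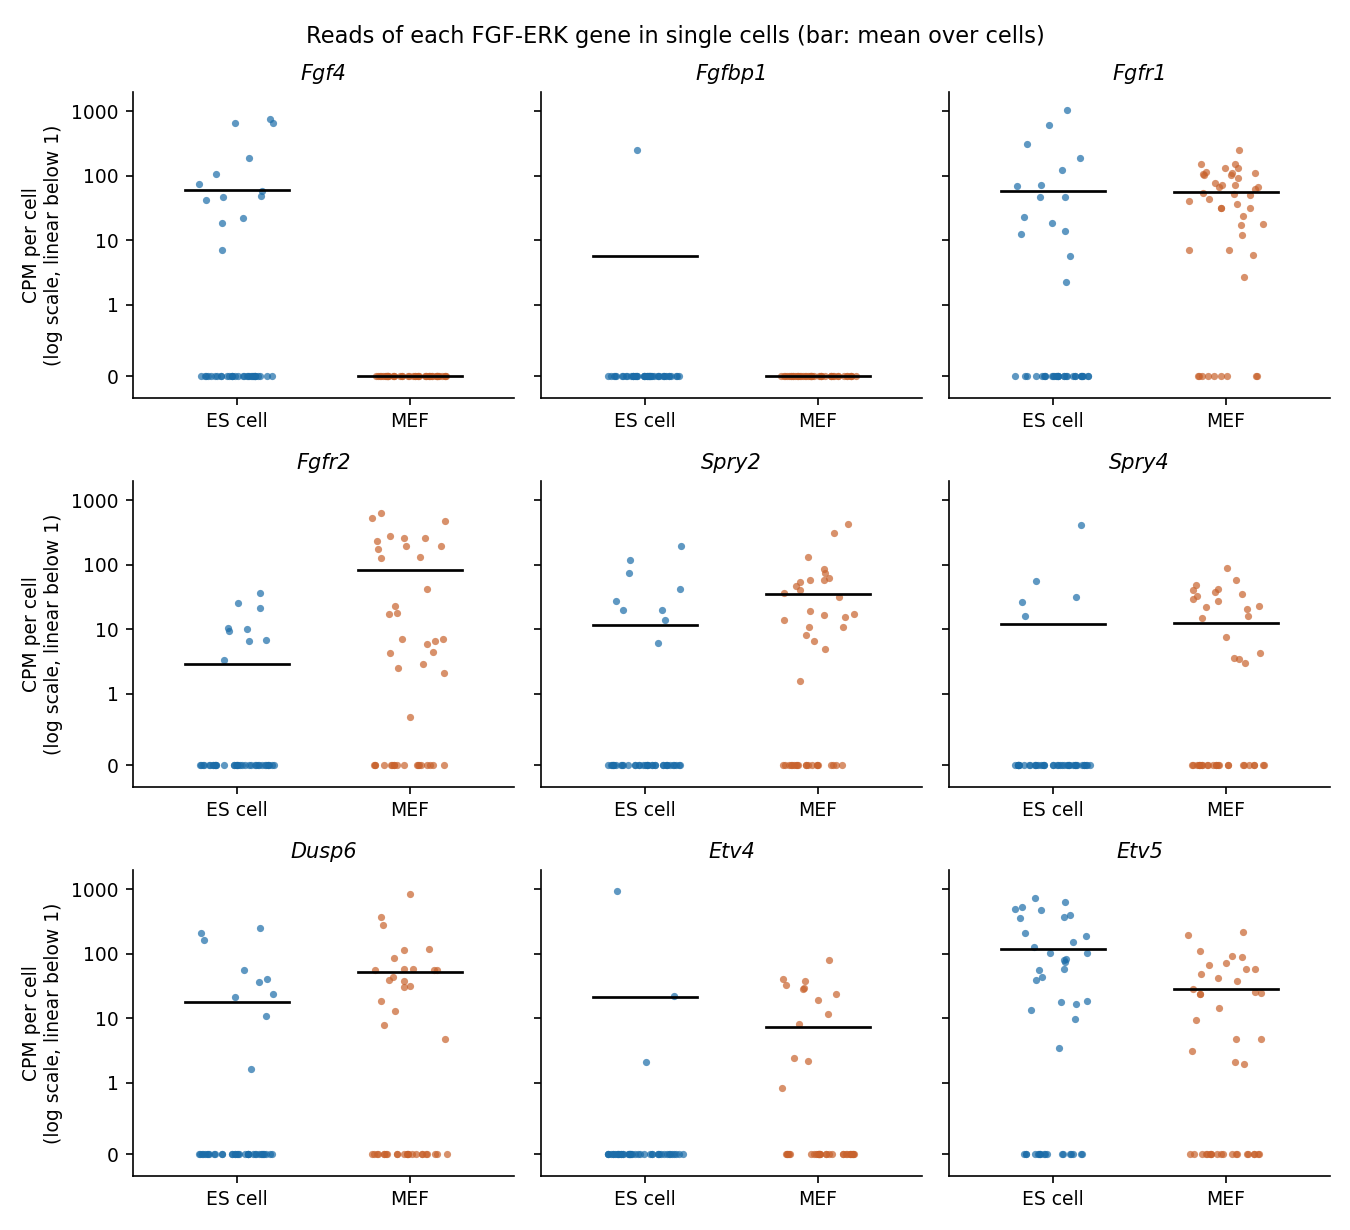
CPM of each of the 9 genes in single cells, with 1 point per cell, 45 ES cells in blue and 44 MEFs in orange, a bar at the mean over cells, and a log axis that is linear below 1 CPM. *Fgf4* and *Fgfbp1* have points above 0 in ES cells alone, *Etv4* has 1 ES cell near 935 CPM, and the points of the other genes overlap between the types.

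Of the receptors, *Fgfr1* had similar pooled levels in both types and *Fgfr2* was higher in MEFs. *Fgfr1* (chr8:25513654-25575718, plus strand), the main FGF receptor of ES cells and of mesenchyme, had 472 reads and 54.1 CPM in ES cells (49.4 to 59.2), against 2382 reads and 67.8 CPM in MEFs (65.1 to 70.5). Its log2 ratio was −0.32, which turned to 0.96 with median-of-ratios scaling, and with 10 CPM added it was −0.28, smaller than the SD of 1.54 over plate rows, with ES cells higher in 3 rows and MEFs in 5. Relative to the median gene its log2 ratio was 1.22. The level was spread differently over cells. In ES cells 15 of 45 held a read, with a median of 0 and a highest value of 1059 CPM, whereas in MEFs 35 of 44 held a read, with a median of 42.2 and a highest value of 254 CPM.

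Few ES cells carried the *Fgfr1* total: replicate 12 held 179 reads, replicate 5 held 87 and replicate 27 held 54, together 67.8% of all. The 3 highest MEFs held 284, 168 and 157 reads, 25.6% of theirs. Without ES cell replicate 12 the log2 ratio was −0.98, just short of 2-fold. Thinned to equal reads, *Fgfr1* was read in 8 of 42 ES cells, 19.05% (8.60% to 34.1%), against 23 of 44 MEFs, 52.3% (36.7% to 67.5%). At the same reads the summed level was 64.3 CPM in ES cells and 51.1 in MEFs, opposite to the shares, so no order is drawn from the share.

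*Fgfr2* (chr7:130162451-133123350, minus strand), whose alternative exons give epithelial and mesenchymal receptor forms that these 5′ reads do not separate, was 26.1-fold higher in MEFs. It had 33 reads and 3.78 CPM in ES cells (2.60 to 5.31), against 3473 reads and 98.8 CPM in MEFs (95.5 to 102). MEFs were higher in all 8 plate rows, and the log2 ratio was −4.71, or −2.98 with 10 CPM added (SD 1.45 over rows), with 5.75% of the 12818 genes at a lower ratio on the CPM scale. Relative to the median gene its log2 ratio was −3.17. The ES cell level was 3.83% of the MEF level, at the lower bound of the 3.83% to 10.9% seen for fibroblast markers, and the part of MEF RNA in it was not tested. A control well held 2 *Fgfr2* reads, and with the mean control well subtracted the log2 ratio was −6.33.

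Over the MEFs *Fgfr2* was uneven: 12 cells held 122 to 692 reads, at 126 to 636 CPM, the next 14 held 1 to 46 reads, and 18 held none. The highest ES cell held 11 reads at 25.1 CPM (replicate 21), and the highest ES cell by CPM, replicate 4, reached 36.3 with 2 reads, so the 12 high MEFs lay above every ES cell. Thinned, 2 of 42 ES cells had a read, 4.76% (0.582% to 16.2%), against 15 of 44 MEFs, 34.1% (20.5% to 49.9%). Both receptors were read together in 6 ES cells, which were 40% of those with *Fgfr1* and 66.7% of those with *Fgfr2*. In MEFs both were read in 22 cells, 62.9% of those with *Fgfr1* and 84.6% of those with *Fgfr2*. At least 1 receptor was read in 18 of 45 ES cells against 39 of 44 MEFs, and at equal reads in 9 of 42 ES cells against 32 of 44 MEFs.

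**Figure D2:**
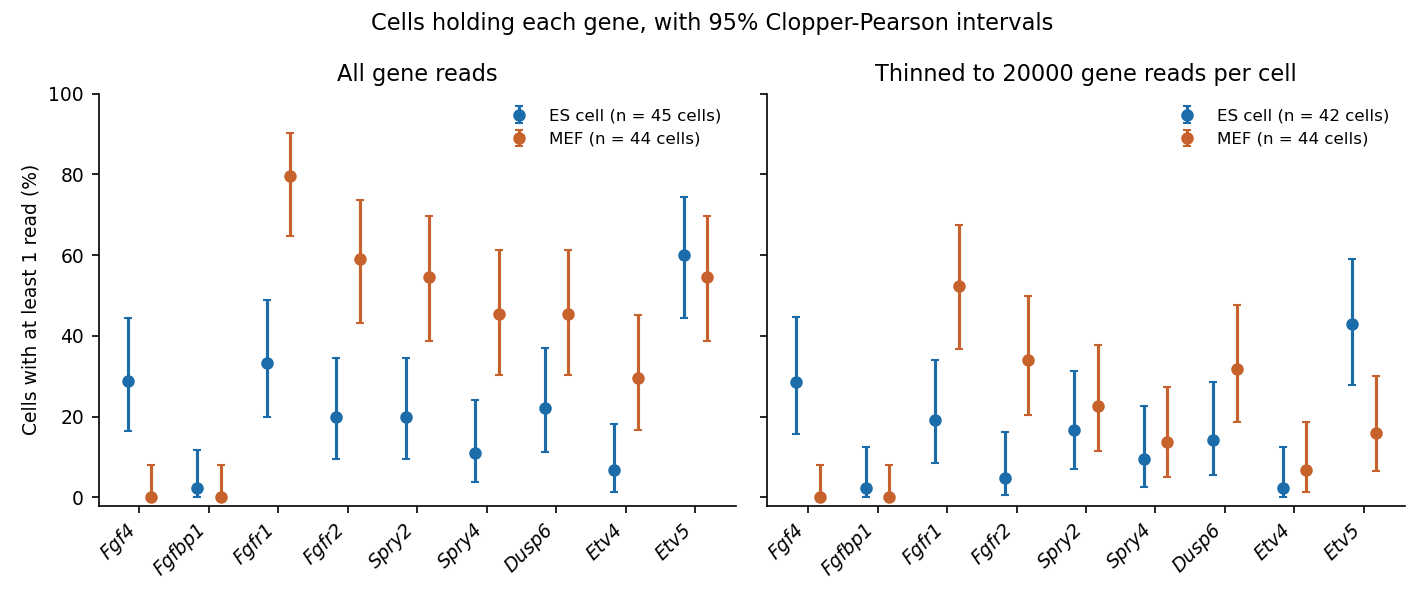
Share of cells with at least 1 read of each gene, with 95% Clopper-Pearson intervals as bars, for ES cells in blue and MEFs in orange, from all reads on the left and at 20000 gene reads per cell on the right. At equal reads the intervals of *Fgf4*, *Fgfr1* and *Fgfr2* are apart, and those of the other 6 genes overlap.

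The feedback inhibitors were all read in more MEFs than ES cells before thinning, and *Spry2* and *Dusp6* passed 2-fold on the MEF side on the CPM scale, although *Spry2* changed side and *Dusp6* fell short of 2-fold with median-of-ratios scaling. *Spry2* (chr14:105891947-105896819, minus strand), a Sprouty protein that restrains receptor signalling upstream of ERK, had 153 reads and 17.5 CPM in ES cells (14.9 to 20.6), against 1365 reads and 38.8 CPM in MEFs (36.8 to 40.9). That is 2.21-fold higher in MEFs on the CPM scale, a log2 ratio of −1.15, which turned to 0.14 with median-of-ratios scaling. The log2 ratio relative to the median gene was 0.39. MEFs were higher in 7 of 8 rows, but with 10 CPM added the log2 ratio of −0.83 was smaller than the SD of 1.23 over rows. Per cell, *Spry2* ran from 0 to 199 CPM in ES cells (median 0, 9 of 45 cells with a read) and from 0 to 424 CPM in MEFs (median 5.66, 24 of 44 cells).

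Replicates 21, 47 and 37 held 52, 45 and 29 of the ES cell *Spry2* reads, 82.4% of the total. In MEFs replicates 59 and 55 held 299 and 261 reads, and without either of them the ratio fell short of 2-fold, at log2 values of −0.82 without replicate 59 and −0.87 without replicate 55. At equal reads, *Spry2* was read in 7 of 42 ES cells, 16.7%, against 10 of 44 MEFs, 22.7%, with intervals that overlap (6.97% to 31.4% in ES cells, 11.5% to 37.8% in MEFs). The summed level at the same reads was 19.05 CPM in ES cells and 20.5 CPM in MEFs, a log2 ratio of −0.10, short of 2-fold.

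*Spry4* (chr18:38586247-38601415, minus strand), another Sprouty gene, had 78 reads and 8.94 CPM in ES cells (7.07 to 11.2), against 501 reads and 14.3 CPM in MEFs (13.03 to 15.6). Its log2 ratio was −0.67, and 0.87 relative to the median gene, and it turned to 0.61 with median-of-ratios scaling. With 10 CPM added it was −0.36, smaller than the SD of 1.20 over rows. It was read in 5 of 45 ES cells, with 36 of the reads in replicate 42, against 20 of 44 MEFs, with at most 79 reads in a cell. Without ES cell replicate 42 the log2 ratio was −1.55, past 2-fold. A control well held 12 *Spry4* reads, and with the mean control well subtracted from each cell the log2 ratio was −4.92, past 2-fold on the MEF side. Of the 5 positive ES cells, replicates 42 and 47 held more than that, with 36 and 19 reads, and the other 3 held 3 to 11. At equal reads *Spry4* was read in 4 of 42 ES cells against 6 of 44 MEFs, with overlapping intervals (2.66% to 22.6% in ES cells, 5.17% to 27.4% in MEFs).

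*Dusp6* (chr10:99263231-99267489, plus strand), which encodes a cytoplasmic phosphatase that removes phosphate from ERK, was 3.67-fold higher in MEFs on the CPM scale. It had 142 reads and 16.3 CPM in ES cells (13.7 to 19.2), against 2100 reads and 59.7 CPM in MEFs (57.2 to 62.3). The log2 ratio was −1.88 on the CPM scale and −0.33 relative to the median gene, so its ratio was near that of the median gene. With 10 CPM added it was −1.41, smaller than the SD of 1.85 over rows. Per cell it ran from 0 to 254 CPM in ES cells (10 of 45 with a read) and from 0 to 844 CPM in MEFs (20 of 44 with a read), with a median of 0 in both. MEF replicates 91 and 69 held 693 and 484 reads, against 129 in the next cell, and ES cell replicates 37, 12 and 14 held 37, 35 and 31, against 14 in the next. At equal reads, 14.3% of ES cells (5.43% to 28.5%) and 31.8% of MEFs (18.6% to 47.6%) had a *Dusp6* read. At least 1 of the 3 inhibitors was read in 14 of 42 ES cells against 21 of 44 MEFs at equal reads.

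The ETS factors were both higher in ES cells on the CPM scale, and lower with spike-in scaling, with many cells behind *Etv5* and 1 cell behind *Etv4*. *Etv5* (chr16:22381309-22439719, minus strand), a PEA3 family factor induced by FGF signalling, had 1275 reads and 146 CPM in ES cells (138 to 154), against 1177 reads and 33.5 CPM in MEFs (31.6 to 35.4). That is 4.37-fold higher in ES cells on the CPM scale, a log2 ratio of 2.13, which turned to −2.44 with spike-in scaling. Relative to the median gene it was 3.67, and 91.4% of the 12818 genes had a lower ratio. ES cells were higher in 6 of 8 rows, and the log2 ratio with 10 CPM added was 1.85 (SD 1.37 over rows). Leaving out each cell in turn gave log2 ratios between 1.92 and 2.59.

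*Etv5* was the member read most widely in ES cells. Per cell it ran from 0 to 722 CPM, with a median of 18.2, in ES cells (27 of 45 with a read), against 0 to 220 CPM, with a median of 2.62, in MEFs (24 of 44 with a read), and the groups overlap. In ES cells replicate 33 held the most reads, 256, or 20.1% of the total, and in MEFs replicate 61 held 369, or 31.4%. At equal reads *Etv5* was read in 18 of 42 ES cells, 42.9% (27.7% to 59.04%), against 7 of 44 MEFs, 15.9% (6.64% to 30.1%), with a narrow overlap of the intervals. No control well held a read of *Etv5*, *Etv4*, *Dusp6*, *Spry2* or *Fgfr1*.

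*Etv4* (chr11:101769742-101785371, minus strand), another PEA3 family factor, had 242 reads and 27.8 CPM in ES cells (24.4 to 31.5), against 289 reads and 8.22 CPM in MEFs (7.30 to 9.23). The pooled log2 ratio was 1.76, but ES cell replicate 20 held 237 of the 242 reads, 97.9%, at 935 CPM. Without it the log2 ratio was −3.80, 13.9-fold higher in MEFs, and with spike-in scaling and all cells it was −2.81. *Etv4* was read in 3 of 45 ES cells, with 237, 4 and 1 reads, against 13 of 44 MEFs, with 1 to 71. ES cells were higher in 1 plate row and MEFs in 6, and with 10 CPM added the log2 ratio of 1.05 was smaller than the SD of 1.67 over rows, so no order between the types is given for *Etv4*.

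**Figure D3:**
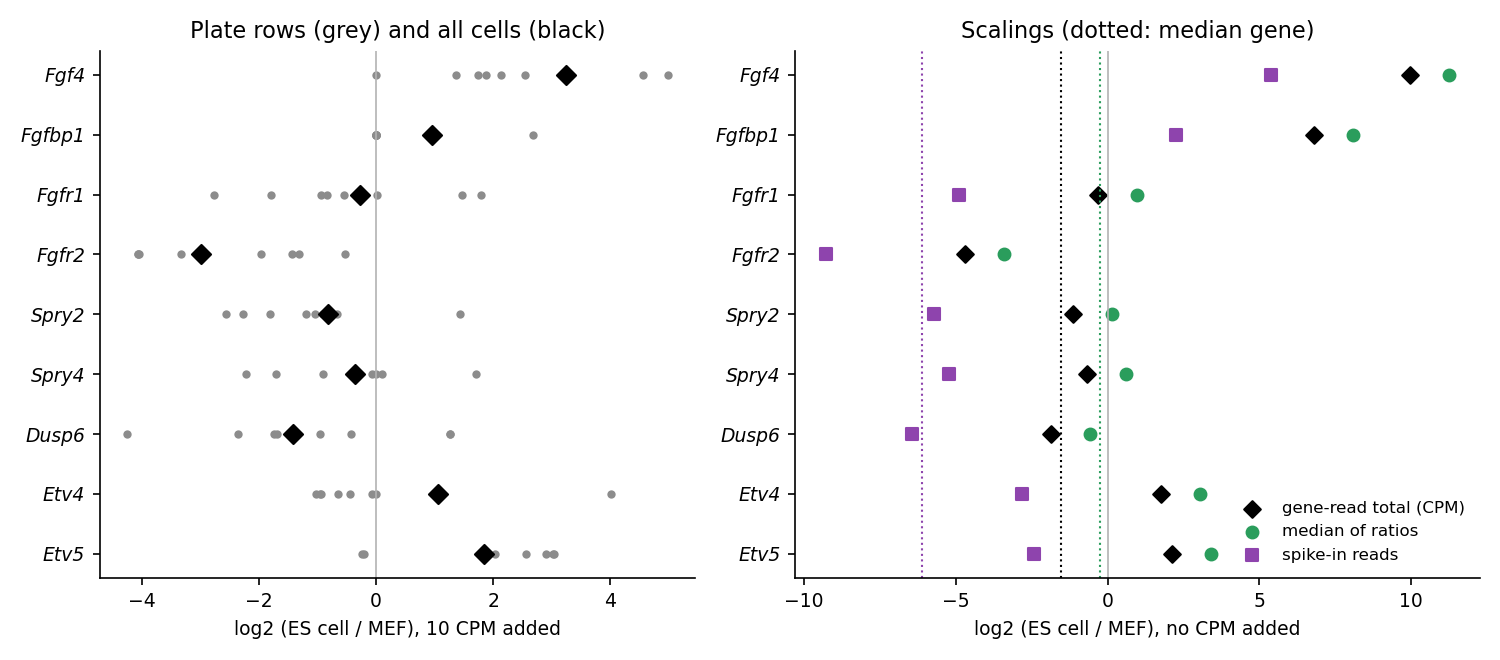
The log2 ratio of ES cells over MEFs for each gene, on the left with 10 CPM added, in each plate row (grey) and over all cells (black), and on the right under 3 scalings without added CPM, with dotted lines at the median gene of each scaling. *Fgfr2* is left of 0 in all 8 rows and *Fgf4* never is, while *Fgfr1*, *Spry2* and *Spry4* change side with median-of-ratios scaling and *Etv4* and *Etv5* with spike-in scaling.

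Of the 9 genes, only *Etv5* was read in at least 50% of the ES cells, a rule that 9.39% of all genes met. *Fgfr1*, *Fgfr2*, *Spry2* and *Etv5* were read in at least 50% of the MEFs, which 41.4% of all genes were. At 20000 reads per cell none of the 9 reached 50% in ES cells (5.24% of all genes) and only *Fgfr1* did in MEFs (18.4% of all genes). A single ES cell held a read of 0 to 6 of the 9 genes (median 2), and 9 cells held none of them. A single MEF held 0 to 7 (median 4), and 2 cells held none. At equal reads the median was 1 in both types, with 15 of 42 ES cells and 6 of 44 MEFs at 0. The number of the 9 genes read per cell went with the depth of the cell, with a Spearman correlation of 0.63 over 45 ES cells and 0.65 over 44 MEFs.

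Ligand and readout genes were partly read in the same ES cells. Of the 13 ES cells with *Fgf4*, 9 held *Etv5*, 33.3% of those with *Etv5*, and 6 held *Fgfr1*, 40% of those with *Fgfr1*. *Etv5* was thus read in 69.2% of the *Fgf4* cells, against 60% of all 45 ES cells (27 cells). For *Fgfr1* the shares were 46.2% of the *Fgf4* cells and 33.3% of all ES cells (15 cells). The Spearman correlation of *Fgf4* with *Etv5* over ES cells was 0.14, and with *Fgfr1* 0.15. All 9 ES cells with *Spry2* also held *Etv5*, with a correlation of 0.28. The highest correlation between 2 of the 9 genes in ES cells was 0.38, between *Fgfr1* and *Fgfr2*. In MEFs all 20 cells with *Dusp6* and all 13 with *Etv4* held *Fgfr1*, which was read in 35 of 44 cells. The highest correlations in MEFs were 0.45 between *Fgfr1* and *Dusp6* and 0.41 between *Spry2* and *Dusp6*. These pairs share their wells and so their depth, and the correlations are descriptions only.

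**Figure D4:**
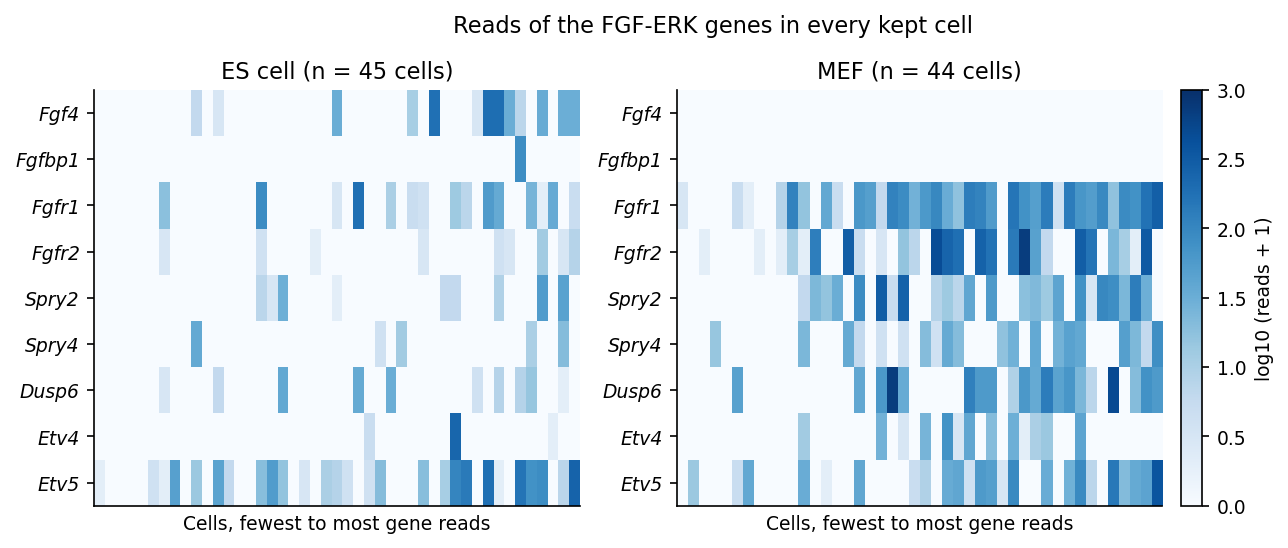
Reads of each gene in every kept cell on a log10 (reads + 1) scale, with 45 ES cells on the left and 44 MEFs on the right, each ordered by the total of gene reads. In both types more of the 9 genes were read in the deeper cells, with *Etv5* in 27 ES cells and *Fgfr1* in 35 MEFs.

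By Spearman correlation of CPM over the cells of a type, the genes most like each of the widely read members were as follows. For *Etv5* in ES cells they were *Cul4b* (0.51), *Gm9846* (0.47) and *Zranb2* (0.46), among 1202 genes and over 45 cells. In MEFs, among 5302 genes and over 44 cells, they were *Gtf2e2* (0.66), *Wdr18* (0.59) and *Tcf3* (0.59) for *Etv5*. For *Fgfr1* they were *Zc3h14* (0.65), *4931406P16Rik* (0.65) and *Tjap1* (0.63). For *Fgfr2* they were *Synpo* (0.59), *Kdelc1* (0.58) and *2900062L11Rik* (0.58), and for *Spry2* they were *Lpcat3* (0.60), *Dynlt1b* (0.59) and *Ubp1* (0.57). Depth is shared here too: the correlation with the gene reads of the MEFs was 0.49 for *Fgfr1*, 0.44 for *Spry2*, 0.34 for *Etv5* and 0.29 for *Fgfr2*. In ES cells it was 0.18 for *Etv5*. Each set holds the 3 highest of all genes compared, so its values are high by selection and are descriptions only.

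Beside *Fgf4*, other ligands of the family were read in few ES cells or not at all. In MEFs *Fgf7* was read in 23 cells, and the others in few cells or not at all. Of 21 other FGF genes, 9 had no read in either type and 11 had at least 20 reads, of which 2 passed 2-fold on the ES cell side, 7 on the MEF side and 2 on neither, against 15.4% of all genes on the ES cell side and 58.5% on the MEF side. Their median log2 ratio was −2.59, against −1.54 for the median gene. The 21 genes were taken by family name, *Fgf11*, *Fgf12*, *Fgf13* and *Fgf14* included, and were not limited to secreted ligands. Set against the median gene, 2 lay above it by 2-fold or more and 6 below it. *Fgf17*, a ligand of the FGF8 subfamily, had 14.4 CPM in ES cells and none in MEFs, but 125 of its 126 reads lay in 1 ES cell. The other was *Fgf15*, an endocrine FGF, at 5.96 CPM in ES cells and 0.199 CPM in MEFs, but 48 of its 52 ES cell reads lay in 1 cell, and without that cell it was 2.36-fold higher in ES cells. *Fgf7*, a mesenchymal ligand of the epithelial form of FGFR2, had 2.64 CPM in ES cells and 32.97 CPM in MEFs, where 23 cells held a read. *Fgf10*, another such ligand, had none in ES cells and 13.8 CPM in MEFs, of which 1 cell held 393 of 485 reads. *Fgf18* had 0.573 CPM in ES cells and 13.3 CPM in MEFs, where 7 cells held a read. Naming *Fgf15* followed its values.

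The list of coreceptors, binding proteins and heparan sulphate genes went mostly to the MEF side. *Fgfr1* and *Fgfr2*, given above, are not on it, and *Fgfr3* and *Fgfr4* had fewer than 20 reads. None of *Fgfr1* to *Fgfr4* is therefore among the genes counted next. Of 15 such genes with at least 20 reads, out of 20 listed, 14 passed 2-fold on the MEF side, none on the ES cell side, and *Gpc3* on neither, against 58.5% of all genes on the MEF side. Their median log2 ratio was −3.75, against −1.54 for the median gene, and 13 of the 15 also lay below the median gene by 2-fold or more. *Fgfr3* had 3 reads in ES cells against 5 in MEFs, and *Fgfr4* had none in either. *Flrt2*, a membrane protein that binds FGF receptors, had 21.9 CPM in ES cells and 544 CPM in MEFs. Among the heparan sulphate proteoglycans, *Gpc4* had 43.6 CPM in ES cells and 559 CPM in MEFs. *Sdc1* had 7.91 CPM in ES cells and 201 CPM in MEFs, and *Sdc2* had 10.2 CPM in ES cells and 168 CPM in MEFs. The ES cell levels of these 4 genes were 3.94% to 7.79% of their MEF levels, a range that lies within that of the fibroblast markers, and the part of MEF RNA in them was not tested.

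The genes of the shared signalling machinery had a median ratio near that of the median gene, with single genes on both sides of it. Of 26 adaptor, Ras and kinase genes, all with at least 20 reads, 19 passed 2-fold on the MEF side, 1 on the ES cell side and 6 on neither, against 58.5% of all genes on the MEF side and 15.4% on the ES cell side. Their median log2 ratio was −1.58, against −1.54 for the median gene, and relative to it 5 lay above by 2-fold or more and 5 below by as much. *Grb2*, the adaptor that recruits the Ras activator SOS, had 7.45 CPM in ES cells and 79.3 CPM in MEFs. *Hras1*, a Ras gene, had 14.6 CPM in ES cells and 110 CPM in MEFs, and *Mapk3*, which encodes ERK1, had 16.3 CPM in ES cells and 122 CPM in MEFs. On the ES cell side was *Frs3*, an FGF receptor docking protein, at 359 CPM in ES cells and 4.92 CPM in MEFs, with 2998 of its 3135 ES cell reads, 95.6%, in 1 cell. Without that cell *Frs3* had 16.2 CPM in ES cells, 3.29-fold higher than in MEFs.

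Of 14 other feedback inhibitors with a row, out of 15 listed, 2 passed 2-fold on the ES cell side, 11 on the MEF side and 1 on neither, against 15.4% of all genes on the ES cell side and 58.5% on the MEF side. Their median log2 ratio was −2.01. Set against the median gene, 3 lay above it by 2-fold or more and 6 below it. Those higher in ES cells were *Spred2*, a Ras pathway inhibitor, with 23.9 CPM in ES cells and 6.60 CPM in MEFs, and *Dusp9*, an ERK phosphatase, with 7.80 CPM in ES cells and 3.21 CPM in MEFs. For each of them 1 ES cell decided the 2-fold call: without it *Spred2* was 1.67-fold and *Dusp9* 1.20-fold higher in ES cells. Both changed side with spike-in scaling, and both were named after their values were seen. Against these, *Spred1* had 0.688 CPM in ES cells and 37.3 CPM in MEFs. The Ras GTPase activator *Rasa3* had 0.917 CPM in ES cells and 29.8 CPM in MEFs, and the EGF receptor inhibitor *Errfi1* had 1.03 CPM in ES cells and 32.7 CPM in MEFs. The ubiquitin ligase *Cblb* had 0.688 CPM in ES cells and 18.9 CPM in MEFs. Each of these 4 was read in at most 2 ES cells.

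Among 21 measured ERK-responsive factors and targets, out of 22 listed, 17 passed 2-fold on the MEF side, none on the ES cell side and 4 on neither, against 58.5% of all genes on the MEF side and 15.4% on the ES cell side. Their median log2 ratio was −2.95. Set against the median gene, 2 lay above it by 2-fold or more and 12 below it. The G1 cyclin *Ccnd1* had 40.8 CPM in ES cells and 337 CPM in MEFs. The immediate early gene *Ier3* had 13.1 CPM in ES cells and 140 CPM in MEFs, and the serum response factor gene *Srf* had 8.72 CPM in ES cells and 85.3 CPM in MEFs. *Ets1*, the founding member of the ETS family, had 1.03 CPM in ES cells and 48.4 CPM in MEFs.

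**Figure D5:**
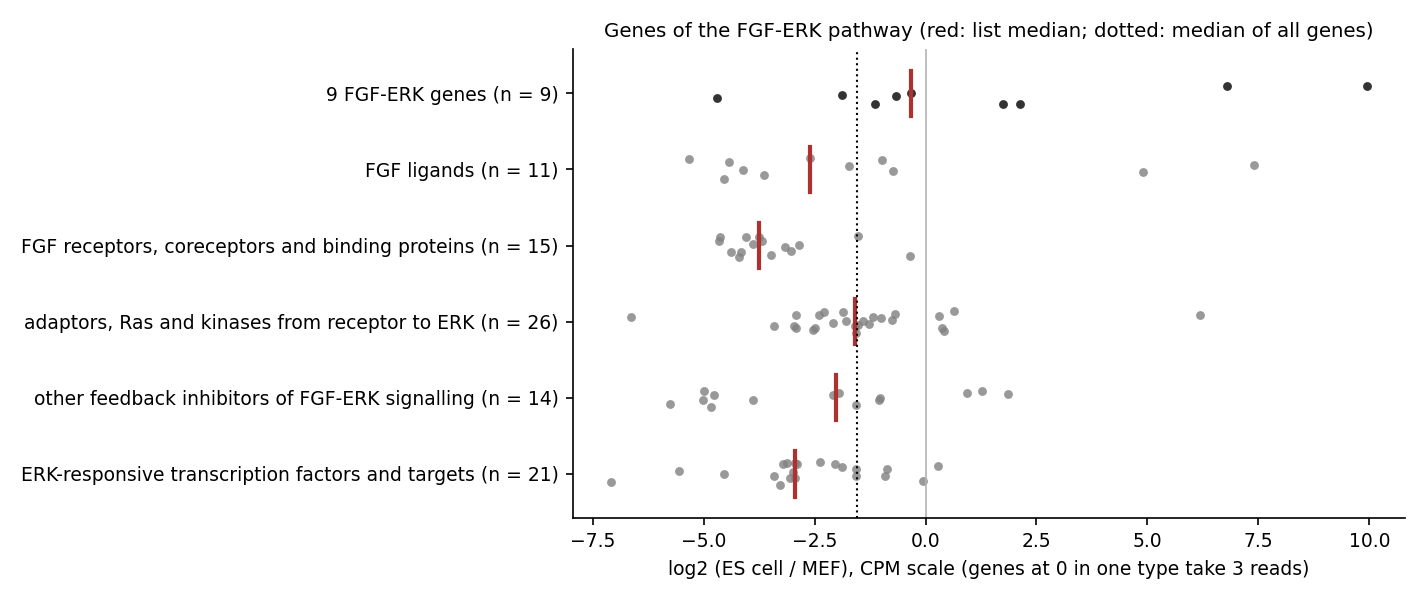
The log2 ratio of ES cells over MEFs for each gene of the 9 (black) and of 5 lists of other FGF-ERK pathway genes with at least 20 reads (grey), with the list median in red and the median of all genes dotted, where genes at 0 in one type take 3 reads. The list medians run from −3.75 for receptors and coreceptors, without *Fgfr1* to *Fgfr4*, to −1.58 for adaptors and kinases, against −0.32 for the 9 genes.

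Markers of the other cells that the cultures could hold were given beside the FGF genes, since early lineages are also known to use FGF signalling. Of 10 early endoderm markers, 4 had at least 20 reads, with 75.8 summed CPM in ES cells and 1022 summed CPM in MEFs. The other 6 had no read in ES cells, *Gata4*, *Sox17* and *Foxa2* among them. *Col4a1* gave 50.5 CPM of the ES cell sum, in 32 cells, and 849 CPM of the MEF sum. *Dab2* gave 4.13 CPM in ES cells and 153 CPM in MEFs. *Lama1* lay on the ES cell side, with 183 reads in 10 ES cells and 3 reads in MEFs. Of 8 formative and mesendoderm markers, 4 had at least 20 reads, with 83.6 summed CPM in ES cells and 11.5 summed CPM in MEFs, and 5 had no read in ES cells, *T*, *Eomes* and *Mixl1* among them. *Otx2*, the most abundant in ES cells, had 64.3 CPM there, in 8 cells, and 0.0853 CPM in MEFs. *Dnmt3b* had 19.04 CPM in ES cells, in 6 cells, and 2.05 CPM in MEFs. The macrophage and blood markers summed to 2.98 CPM in ES cells and 2.79 CPM in MEFs, and the endothelial markers to 39.7 CPM in ES cells and 28.6 CPM in MEFs. Of the endothelial sum in ES cells, 37.4 CPM was *Egfl7*, with 219 of its 326 reads in 1 cell. Of the 6 endothelial markers, 3 had no read in ES cells. The part of all these other cells in the levels of the 9 genes was not tested.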

How the data were processed

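The authors deposited 1 table of raw read counts, well by well, for transcripts, spike-ins and repeats, per the file headers. These counts are maximum exon hits, which include alternative mappings. The submitters' processing notes name Bowtie. Version, build and annotation are not given in the sources used here. No molecular identifiers are mentioned per the labels, so PCR copies count separately.

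From these counts, reads were summed per cell type over wells with at least 10000 gene reads (45 of 48 ES cells, all 44 MEFs) and divided by the gene-read total (CPM), with exact Poisson intervals at 95% and Clopper-Pearson intervals for shares. Cells were thinned to 20000 gene reads (random seed 1), which left out 3 ES cells and 0 MEFs. The 1217 repeat rows and 8 spike-in rows were left out of gene totals. No wells had identical counts. Genes with at least 20 reads counted as measured, a 2-fold ratio as a call, and a type at 0 took a floor of 3 reads over the type. For SDs over plate rows 10 CPM was added. Genes named beside the 9 were the 4 of each list with the largest absolute log2 ratio with 10 CPM added, and the 3 most correlated with each member read in at least 50% of a type's cells. The members and lists were chosen with earlier results of these data known. The ratio calculation was tested on simulated data. Gene coordinates are from the GENCODE annotation of GRCm38. Alternatives were other scalings, thinning, added CPM, per-cell means, read and depth minimums, plate parts, control subtraction and leaving out cells. Python 3.11.15, numpy 2.4.6, scipy 1.17.1, pandas 2.3.3 and matplotlib 3.10.9 were used.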

Additional observations from a re-analysis of the deposited data

Results flagged for a closer look

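In the 4 negative control wells, a single well held all reads of 3 of the 9 genes: 6 reads of *Fgf4*, 2 of *Fgfr2* and 12 of *Spry4*, with 0 in the other 3 wells each time. Dixon's test marks such a well whatever its count once the other 3 are at 0, so the mark says only that all reads lay in 1 well, and the usual chance rate of about 1 in 20 groups does not apply. All 9 genes were examined. The ES cell wells left out for having under 10000 gene reads held 3 *Spry2* reads, all in replicate 32, a signal in wells that the comparisons did not use.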

How the results depend on the processing

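Of the 9 genes, 4 passed 2-fold on the ES cell side and 3 on the MEF side. The MEF count became 1 with median-of-ratios scaling, and with spike-in scaling the counts became 2 on the ES cell side and 7 on the MEF side. With the mean control well subtracted the MEF count became 4, as *Spry4* moved to a log2 ratio of −4.92 from −0.67, and *Fgfr2* moved to −6.33 from −4.71. These scalings shift all ratios alike, as their all-gene medians of −0.26 and −6.10 show. Leaving out each cell in turn gave 3 to 4 genes on the ES cell side and 2 to 4 on the MEF side. The ES cell count was 3 when thinned, with 10 CPM added, with at least 100 reads, in rows A to D and in rows E to H. The MEF count was 2 with totals without ribosomal protein genes, when thinned and with 10 CPM added, and 4 in rows E to H. At 20000 reads per cell, the genes read in at least 50% of cells fell to 0 in ES cells, against 1 with all reads, and to 1 in MEFs, against 4. The log2 ratio of a called gene changed sign for *Spry2* with median-of-ratios scaling (0.14) and in plate rows E to H (0.0755), for *Etv4* with spike-in scaling (−2.81), in rows E to H (−2.75) and without ES cell replicate 20 (−3.80, against up to 2.13 without any other cell), and for *Etv5* with spike-in scaling (−2.44). Below 2-fold, *Fgfr1* (−0.32) changed sign in 4 settings (0.054 to 0.96) and *Spry4* (−0.67) in 3 (0.22 to 0.61), median-of-ratios scaling and thinning among both. The cause of the differences between plate rows was not tested. *Fgf4* stayed positive (3.24 to 11.23) and *Fgfr2* negative (−9.27 to −2.98) in all 15 settings run. No ratio could be given for *Fgfbp1* in rows A to D, when thinned or with at least 100 reads. No pairing by replicate number was possible, since the types share none, and ratios within plate rows stand with each gene. Chosen after seeing the data, the leave-outs of the top ES cell of *Fgf15*, *Frs3*, *Spred2* and *Dusp9* stand with those genes, and *Fgf17* gave no ratio without it.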
